A study of Mus musculus with 6 samples.

Results

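The genes described here are 8 components of the mitochondrial apoptosis pathway, taken by symbol from the 11108 genes of the expression table: Bcl2, Mcl1, Bid, Bad, Apaf1, Cycs, Casp9 and Casp6. All 8 have values, and all 8 passed the filter on low values (a mean of at least 10) and were tested. RNA-seq was run on bone marrow hematopoietic stem cells, which self-renew and give rise to every blood lineage, of Mcph1-/- and of wild-type (WT) mice. Microcephalin, the product of Mcph1, acts in the timing of chromosome condensation and in DNA damage signalling. Each genotype had 3 libraries, each made with the full-length Smart-seq2 method from 200 cells sorted as lineage-negative Sca-1+ c-Kit+ CD34- CD150+. None of the mice was treated. The labels name no strain, no age and no kind of Mcph1 deletion. They also do not say that replicates are different mice, and the p-values therefore measure spread among 6 libraries that may be partly technical.

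In this pathway, proteins of the BCL2 family decide whether the outer mitochondrial membrane is opened. BCL2 and MCL1 keep it closed, BH3-only proteins such as BID and BAD relay death signals against them, and BAX and BAK form the pore. Cytochrome c then leaves the mitochondrion and joins APAF1 in the apoptosome, which activates caspase-9 and through it the executioner caspases. In hematopoietic stem cells MCL1 is known to be needed for survival, and forced BCL2 expression protects these cells from death.

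Values are normalised read counts, that is, reads per gene divided by 1 size factor per library. Libraries held 9464810 to 10455908 reads in Mcph1-/- and 8102605 to 8655123 in WT, with 10516 to 10777 genes detected in Mcph1-/- and 10209 to 10335 in WT. The targeted gene was read in every library, at 428, 37.7 and 234 in Mcph1-/- replicates 1 to 3 and at 160.5, 341 and 34.4 in WT, so the table does not check the genotype and directions rest on the labels. All 10 stem cell markers had values, with summed levels of 9329 to 10169 in Mcph1-/- and 11079 to 13722 in WT. Among them Slamf1, which encodes CD150, was at 0 in WT replicate 1 and had 1 read in Mcph1-/- replicate 3. Of 10 neutrophil markers 7 had values, summing to 3287 to 18724 in Mcph1-/- and 58564 to 67847 in WT. Elane was at 0 in Mcph1-/- replicate 2. Lower in Mcph1-/- on mean log2 values were 6 of the 7, 4 of them without overlap. Mpo, Elane and Prtn3 overlapped. Mpo was the gene not lower on that scale (log2 fold change 1.45, SE 3.61). Elane was lower on it (-1.58, SE 3.74), although its mean was higher in Mcph1-/- (2700 against 1251 in WT). Of 6 monocyte and macrophage markers 3 had values, at 4641 to 4825 in Mcph1-/- and 7785 to 12762 in WT, with Cd68 at 0 in WT replicate 1. Most of that sum is Lyz2, and Ctss went the other way, at 191 to 262 in Mcph1-/- and 19.5 to 184 in WT. The 8 erythroid markers summed to 31166 to 39302 in Mcph1-/- and 4581 to 19960 in WT, and Gata1, Epor, Tfrc and Hbb-bs were each at 0 in at least 1 library. That sum is mostly Car1, at 23716 to 31845 in Mcph1-/- and 1628 to 4566 in WT. By mean log2 values 5 of the 8 were higher in Mcph1-/- and 3 lower. Both globin genes went the other way without overlap, Hba-a1 at 55.0 to 185 in Mcph1-/- and 251 to 8516 in WT, and Hbb-bs at 0 to 9.82 in Mcph1-/- and 24.7 to 2257 in WT. The 8 markers of dividing cells, none at 0, summed to 7565 to 10883 in Mcph1-/- and 3493 to 5035 in WT. The summed markers of megakaryocytes, B cells, T and NK cells, and mast cells and basophils overlapped between the genotypes. The other sums separate the genotypes in the same libraries as the genes below, and their part in the results was not tested. In libraries of pooled cells, fewer cells with a transcript and less of it per cell cannot be told apart.

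Promoters of 4 of the genes are shown because Bcl2, Cycs and Casp6 are the members whose genotypes did not overlap and Apaf1 shares a motif with Cycs. Each run is the 250 bases before the RefSeq start site on GRCm38.p6, whose chromosome coordinates are those of mm10, and all 8 genes were matched in that table, Bad with a second start site. Capitals mark GC boxes (GGGCGG) in Bcl2 and Casp6, a GC box on either side of an NRF1 core in Apaf1, and the cyclic AMP response element (TGACGTCA) followed by the NRF1 core (GCATGCGC) in Cycs, each on either strand.
Bcl2 (chr1:106714291-106714540, minus strand): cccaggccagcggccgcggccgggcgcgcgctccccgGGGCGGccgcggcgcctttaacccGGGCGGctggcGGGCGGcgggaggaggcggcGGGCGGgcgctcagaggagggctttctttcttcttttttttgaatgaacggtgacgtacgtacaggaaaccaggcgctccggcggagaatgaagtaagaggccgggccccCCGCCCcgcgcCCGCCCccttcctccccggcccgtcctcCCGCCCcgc
Apaf1 (chr10:91082744-91082993, minus strand): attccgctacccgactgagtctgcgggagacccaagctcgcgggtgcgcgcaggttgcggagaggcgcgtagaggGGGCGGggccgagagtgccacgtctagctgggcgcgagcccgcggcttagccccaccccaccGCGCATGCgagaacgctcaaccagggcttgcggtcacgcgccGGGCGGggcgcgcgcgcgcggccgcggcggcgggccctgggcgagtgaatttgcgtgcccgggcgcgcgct
Cycs (chr6:50566570-50566819, minus strand): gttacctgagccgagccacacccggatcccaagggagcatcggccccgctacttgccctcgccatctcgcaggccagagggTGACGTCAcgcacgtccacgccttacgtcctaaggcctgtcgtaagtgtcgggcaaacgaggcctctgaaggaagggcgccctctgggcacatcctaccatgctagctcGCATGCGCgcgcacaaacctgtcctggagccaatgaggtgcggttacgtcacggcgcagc
Casp6 (chr3:129901165-129901414, plus strand): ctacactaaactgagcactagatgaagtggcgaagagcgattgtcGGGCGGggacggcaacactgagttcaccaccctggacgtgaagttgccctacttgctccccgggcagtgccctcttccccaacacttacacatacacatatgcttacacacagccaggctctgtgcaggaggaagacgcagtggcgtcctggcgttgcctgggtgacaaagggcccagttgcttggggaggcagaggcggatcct

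Both strands were searched for 5 motifs, and overlapping matches were counted. The NRF1 core GCATGCGC lies in 2.26% of 32841 promoter windows of this length, and among the 8 genes in Cycs (first base at -60 from the start site) and in Apaf1 (at -113, as its reverse complement). The cyclic AMP response element TGACGTCA lies in 1.55% of windows and among the 8 genes in Cycs alone, at -169. Sites for NRF1 and CREB in the cytochrome c promoter are known from the rat. The E2F words TTTCCCGC, TTTGGCGC, TTTCGCGC and TTTGCCGC, found in 1.86% of windows, were searched because MCPH1 is known as a cofactor of E2F1 in human cells, and were in none of these 9 windows. A GC box lies in 32.7% of windows and in 7 of the 8 genes, all but Cycs: 7 matches in Bcl2, 4 in Casp9, 3 each in Bid and Bad, 2 in Apaf1 and 1 each in Mcl1 and Casp6. The CCAAT box (CCAAT), found in 33.9% of windows, was in Cycs at -31 and in the second Bad window at -48. A match is a description of the sequence, and no match says only that these letters are not in this window.

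**Figure D1:**
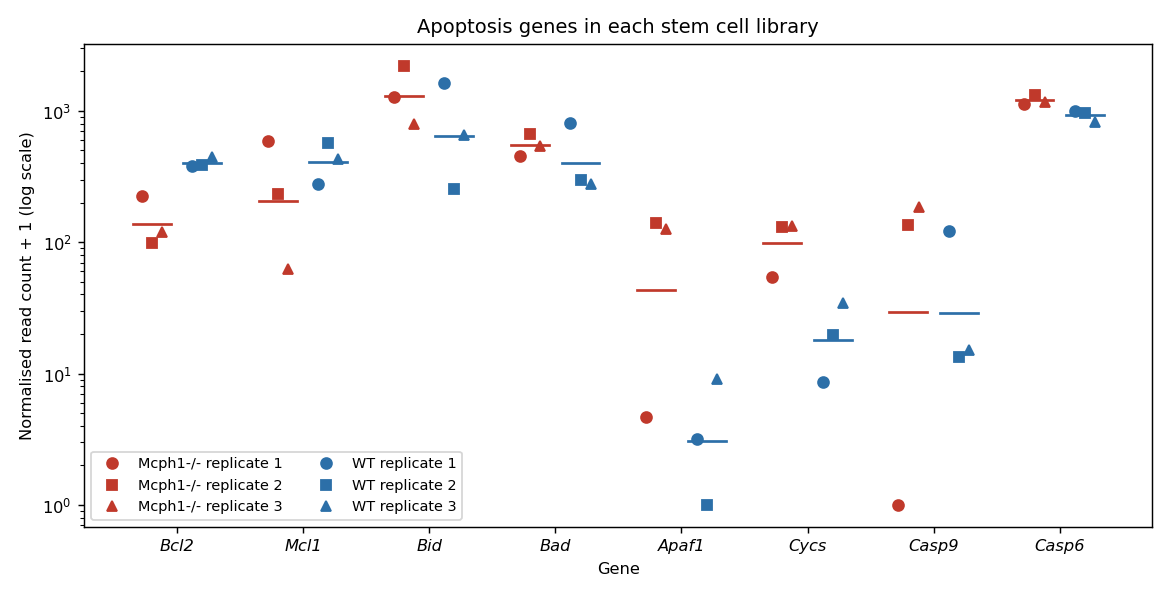
Normalised read count plus 1 (log axis) of the 8 genes in each library, Mcph1-/- in red and WT in blue, with marker shapes for replicates 1 to 3 and lines at the mean of log2 values. The 3 Mcph1-/- libraries lie below the 3 WT libraries for Bcl2 and above them for Cycs and Casp6, while Mcl1, Bid, Bad, Apaf1 and Casp9 overlap.

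The comparison asked which of these transcripts differ between Mcph1-/- and WT stem cells. None of the 8 passed limma's test with Benjamini-Hochberg adjustment over all 10846 tested genes at a threshold of 0.05, where 0.0369% of all genes passed (1 higher and 3 lower in Mcph1-/-). One member, Bcl2, had an unadjusted p under 0.05, against 7.71% of all genes (4.16% higher and 3.55% lower in Mcph1-/-). That count was 0 with a replicate block and without Mcph1-/- replicate 2 or 3 or WT replicate 2 or 3, and 2 without Mcph1-/- replicate 1 or with a pseudocount of 16 (Bcl2 and Apaf1 each time). Without WT replicate 1 the 1 gene was Bid. The count was 3 by DESeq2 (Bcl2, Apaf1 and Cycs), and by edgeR the 1 gene was Apaf1 (unadjusted p = 0.0490), with Bcl2 at 0.0640. None passed by edgeR, which called 0.0184% of genes, by DESeq2, which called 2.19%, or by limma-voom, which called 0.00922%. For 3 of the 8 the values of the genotypes did not overlap, against 14.2% of all tested genes (7.4% higher and 6.8% lower in Mcph1-/-): Bcl2 was lower in every Mcph1-/- library, and Cycs and Casp6 were higher. On mean log2 values 6 members were higher in Mcph1-/- and 2 were lower, against 53.8% of all tested genes higher. The sixth was Casp9 at 0.01, and the split was 5 higher and 3 lower with a pseudocount of 0.5, by limma-voom, and without Mcph1-/- replicate 2 or 3 or WT replicate 2 or 3. Their median log2 fold change was 0.41, and that of all tested genes was 0.08. Without Mcph1-/- replicate 1 the number without overlap was 6 (with Mcl1, Apaf1 and Casp9, against 22.8% of all genes), and without WT replicate 1 it was 5 (with Bid and Bad, against 25.3%). The median was 0.80 without Mcph1-/- replicate 1, 0.99 without WT replicate 1, 0.27 without WT replicate 2 and 0.23 without WT replicate 3.

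Of the survival proteins, Bcl2, the founding anti-apoptotic member of its family, was the one that separated the genotypes. Its normalised read count was 225, 98.4 and 118 in Mcph1-/- replicates 1 to 3, against 383, 387 and 443 in WT replicates 1 to 3. Every Mcph1-/- library was below every WT library, and the WT libraries lay close together. The mean was 147 ± 68.3 in Mcph1-/- and 405 ± 33.7 in WT (SD, n = 3 each), 2.75-fold lower in Mcph1-/-. The log2 fold change, the difference of mean log2(value + 1), was -1.54 (SE 0.60; 95% interval -2.93 to -0.15; limma adjusted p = 0.628). Its p ranked 578 among the 10846 tested genes. With each library left out in turn, the log2 fold change ranged from -1.90 without Mcph1-/- replicate 1 to -1.30 without Mcph1-/- replicate 2. The direction of Bcl2 could not turn there, since the genotypes do not overlap. DESeq2 gave it an adjusted p of 0.169. Bcl2 (ENSMUSG00000057329) spans chromosome 1 from 106538178 to 106714274 in mm10 (minus strand), and 558 bases of its exons are shared with the opposite-strand gene D630008O14Rik, which has no values here. No strand setting is given, so reads there cannot be told apart.

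Mcl1, the other survival protein among the 8, did not separate the genotypes. It stood at 586, 231 and 61.6 in Mcph1-/- and at 277, 568 and 427 in WT, so that the Mcph1-/- libraries included both the highest and the lowest value. The mean was 293 ± 267 in Mcph1-/- and 424 ± 146 in WT, with a log2 fold change of -0.995 (SE 0.84; 95% interval -2.92 to 0.93; limma adjusted p = 0.751). Without Mcph1-/- replicate 3 the log2 fold change was -0.14, and without Mcph1-/- replicate 1 it was -1.76. Mcl1 (ENSMUSG00000038612) spans chromosome 3 from 95658788 to 95663176 (plus strand). Per kilobase of exon, Bcl2 made up 12.6%, 13.7% and 41.7% of Bcl2 plus Mcl1 in Mcph1-/- and 34.1%, 20.3% and 27.9% in WT, which overlap. The third anti-apoptotic gene with values, Bcl2l2 (BCL-w), was listed at 0 in Mcph1-/- replicate 2 and in WT replicate 1, and its log2 fold change of -0.89 had an SE of 2.41.

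Bid and Bad relay death signals to mitochondria: BID is cut by caspase-8 and activates the pore-formers, and BAD binds and neutralises survival proteins unless it is phosphorylated. Bid stood at 1266, 2200.1 and 790.2 in Mcph1-/- and at 1623, 256 and 656 in WT. The genotypes overlapped, since WT replicate 1 exceeded 2 of the Mcph1-/- libraries. The means were 1419 ± 717 in Mcph1-/- and 845 ± 703 in WT, and the log2 fold change was 1.004 (SE 0.66; 95% interval -0.52 to 2.52; limma adjusted p = 0.700). Bad stood at 449, 669 and 540.2 in Mcph1-/- and at 810.1, 296 and 274 in WT, where replicate 1 was again the highest of its genotype. Its log2 fold change was 0.43 (SE 0.51; 95% interval -0.74 to 1.61; limma adjusted p = 0.823). Without WT replicate 1 both genes separated the genotypes, at log2 fold changes of 1.66 for Bid and 0.94 for Bad. Other libraries moved them toward 0: Bid was at 0.33 without WT replicate 2 and 0.62 without Mcph1-/- replicate 2, and Bad was at 0.21 without WT replicate 2, 0.16 without WT replicate 3 and 0.29 without Mcph1-/- replicate 2. Bid (ENSMUSG00000004446, chromosome 6 from 120891930 to 120916853, minus strand) shares 628 exonic bases with Bcl2l13, and Bad (ENSMUSG00000024959, chromosome 19 from 6941861 to 6951899, plus strand) shares 524 with Gpr137, so both counts are uncertain.

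Of the apoptosome genes, Cycs, which encodes somatic cytochrome c, separated the genotypes. It stood at 52.9, 130.4 and 131 in Mcph1-/- and at 7.59, 18.5 and 33.4 in WT. Every Mcph1-/- library was above every WT library, but the WT values rest on 7, 18 and 33 reads. The means were 105 ± 45.0 in Mcph1-/- and 19.8 ± 13.0 in WT, a ratio of 5.28, and the log2 fold change was 2.45 (SE 1.37; 95% interval -0.69 to 5.59; limma adjusted p = 0.667). Cycs (ENSMUSG00000063694) spans chromosome 6 from 50562563 to 50566538 (minus strand). Its count is uncertain, because 4 other annotated genes match its transcripts at 95% identity or more over at least 300 bases, 3 of them processed pseudogenes.

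Of these copies 2 have values, and both were read more than Cycs itself. They were looked at after the values were seen. The retrogene Gm10053, on chromosome 19 from 24875686 to 24876631, stood at 1109, 1225 and 1423 in Mcph1-/- and at 826, 967 and 559 in WT. The processed pseudogene Gm10108, on chromosome 5 from 13121448 to 13121766, stood at 666, 741 and 798 in Mcph1-/- and at 15.2, 57.7 and 302 in WT. For both, every Mcph1-/- library was above every WT library. The sum of Cycs and these copies was 1828, 2096 and 2353 in Mcph1-/- and 849, 1044 and 894 in WT, again without overlap. The summed mean was 2092 ± 262 in Mcph1-/- and 929 ± 102 in WT (SD, n = 3 each), with a log2 fold change of 1.17 (SE 0.23; 95% interval 0.65 to 1.69) and a ratio of means of 2.25. This did not pass over all genes either (limma unadjusted p = 7.93e-04, adjusted p = 0.358). The fold change of Cycs alone was thus larger than that of the sum, and which locus the reads came from was not tested.

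**Figure D2:**
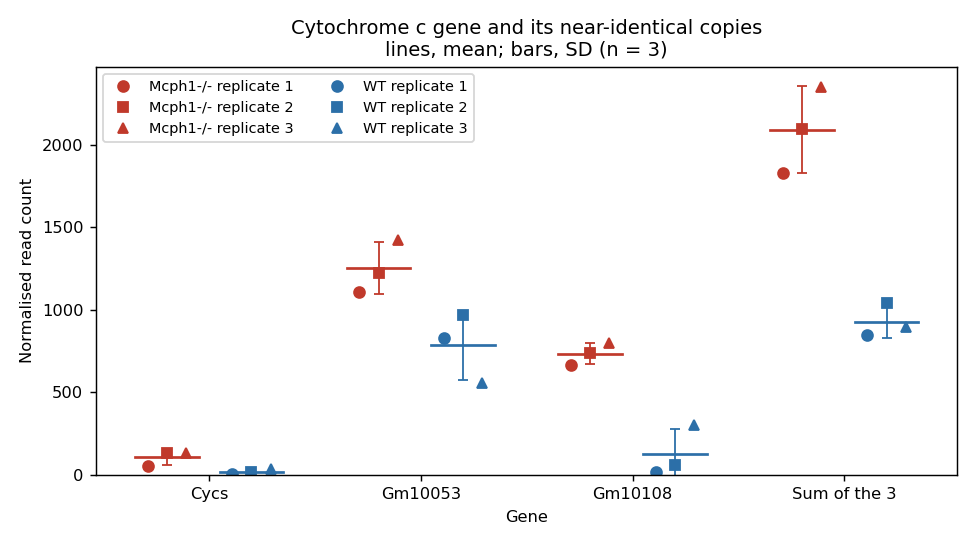
Normalised read count of Cycs, its near-identical copies Gm10053 and Gm10108, and their sum in each library, Mcph1-/- in red left of WT in blue, with the mean and SD (n = 3). Cycs holds a small share of the summed reads, and the sum lies between 1828 and 2353 in Mcph1-/- and between 849 and 1044 in WT.

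Apaf1, the scaffold of the apoptosome, was near the detection limit in 4 of the 6 libraries. It stood at 3.65, 139 and 125 in Mcph1-/-, from 4, 170 and 140 reads, and at 2.17, 0 and 8.10 in WT, from 2, 0 and 8 reads. It passed the filter on low values through its Mcph1-/- libraries, its WT mean being 3.42. A count of 0 in WT replicate 2 allows up to 3 reads, a normalised read count of 3.09, for counting error only. Mcph1-/- replicates 2 and 3 were far above all WT libraries, and Mcph1-/- replicate 1 lay within the WT range. The log2 fold change was 3.83 (SE 1.94; 95% interval -0.62 to 8.28; limma adjusted p = 0.662), from 2.98 without Mcph1-/- replicate 2 to 5.44 without Mcph1-/- replicate 1. By DESeq2 its adjusted p was 0.128. Apaf1 (ENSMUSG00000019979) spans chromosome 10 from 90989311 to 91082770 (minus strand).

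Casp9, the initiator caspase that the apoptosome activates, showed no steady direction. It stood at 0, 135 and 184 in Mcph1-/- and at 120.4, 12.4 and 14.2 in WT. Mcph1-/- replicate 1, the library low in Apaf1, had no Casp9 read, which allows a normalised read count of up to 2.74. WT replicate 1 was high in Casp9 and held 2 Apaf1 reads, so the pair did not go together in every library. The log2 fold change was 0.01 (SE 2.30; 95% interval -5.27 to 5.29; limma adjusted p = 0.9998), although the means were 106 ± 95.2 in Mcph1-/- and 49.0 ± 61.8 in WT. Its direction turned to -1.32 without Mcph1-/- replicate 3, -1.10 without Mcph1-/- replicate 2, -0.55 without WT replicate 2 and -0.46 without WT replicate 3, and the log2 fold change was 2.44 without Mcph1-/- replicate 1. Casp9 (ENSMUSG00000028914) spans chromosome 4 from 141793612 to 141815976 (plus strand) and shares 188 exonic bases with Cela2a and Ctrc on the other strand.

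Casp6, an executioner caspase that cuts nuclear lamins, was the steadiest of the 8. It stood at 1133, 1328 and 1175 in Mcph1-/- and at 1003, 959 and 828 in WT. Every Mcph1-/- library was above every WT library, by a small margin. The means were 1212 ± 103 in Mcph1-/- and 930.1 ± 91.1 in WT (SD, n = 3 each), a ratio of 1.30, and the log2 fold change was 0.38 (SE 0.24; 95% interval -0.17 to 0.94; limma adjusted p = 0.695). With each library left out it was 0.30 to 0.44. The SE is larger than the spread of its own libraries would give, because limma draws each gene's variance toward that of genes of like level. Casp6 (ENSMUSG00000027997) spans chromosome 3 from 129901425 to 129914103 (plus strand), with no other gene on its exons and no near-identical copy. Bcl2 per kilobase was 12.1%, 4.52% and 6.12% of Casp6 per kilobase in Mcph1-/- and 23.3%, 24.6% and 32.7% in WT. With Bcl2 lower and Casp6 higher in every Mcph1-/- library this ratio had to be lower there, so it adds nothing to the separation of either gene.

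**Figure D3:**
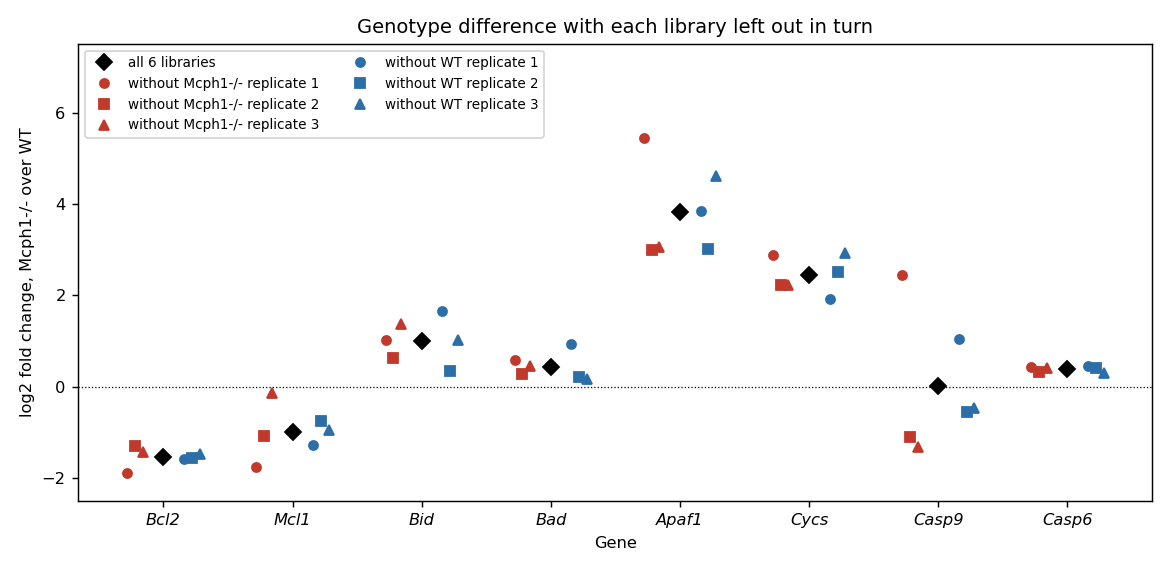
Log2 fold change (Mcph1-/- over WT) of each gene with all 6 libraries (black diamonds) and with 1 library left out (red, an Mcph1-/- library; blue, a WT library). All genes but Casp9, which ranges from -1.32 to 2.44, keep their side of 0. For Bcl2, Cycs and Casp6 this was fixed in advance, since their genotypes do not overlap.

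The SD between libraries of 1 genotype differed among the genes. It set the SE of each gene only in part, because limma draws each variance toward that of genes of like level. On the log2 scale this SD was 0.13 for Casp6, smaller than in all but 1.42% of tested genes, and 0.45 for Bcl2, with 23.6% of genes below it. It was 0.65 for Bad, 0.89 for Cycs, 1.077 for Bid and 1.20 for Mcl1, around the median of 0.88 over all tested genes. Apaf1 (2.27) and Casp9 (3.24) were among the genes with a wide spread. Each had at least 1 library with under 10 reads beside at least 1 library with over 100 reads, and the part of cell and read sampling in this was not tested.

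**Figure D4:**
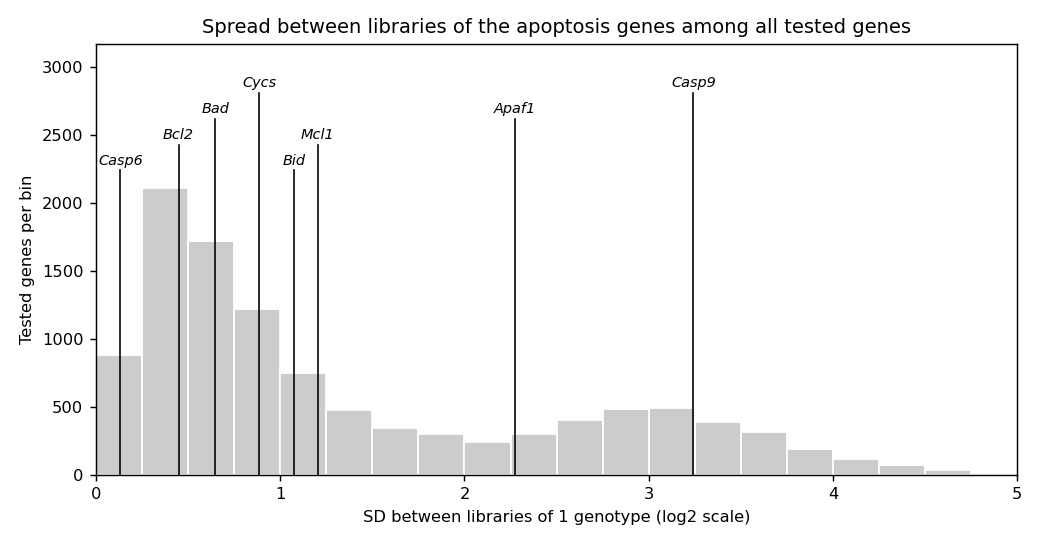
Histogram of the SD between libraries of 1 genotype (log2 scale) over all 10846 tested genes, in bins of 0.25, with the 8 genes marked. Casp6 is in the lowest bin at 0.13, Casp9 lies in the upper hump at 3.24, and Apaf1, at 2.27, lies just above the trough between the humps.

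Levels were compared between genes per kilobase of merged exons. In Mcph1-/- the order of the mean normalised reads per kilobase was Bid (400 ± 202), Casp6 (217 ± 18.4), Bad (216 ± 43.3), Mcl1 (85.7 ± 78.2), Cycs (30.8 ± 13.2), Casp9 (20.4 ± 18.3), Bcl2 (16.1 ± 7.46) and Apaf1 (9.90 ± 8.26). In WT it was Bid (238 ± 198), Bad (180 ± 119), Casp6 (167 ± 16.3), Mcl1 (124 ± 42.6), Bcl2 (44.2 ± 3.68), Casp9 (9.42 ± 11.9), Cycs (5.83 ± 3.81) and Apaf1 (0.379 ± 0.464; SD, n = 3). In Mcph1-/-, neighbours in this order overlapped in their ranges except Bad and Mcl1, and Bcl2, at 10.8 to 24.6 per kilobase, overlapped Cycs, Casp9 and Apaf1. In WT, Bcl2 was below all Mcl1 values and above all Casp9 values, at 41.8 to 48.4 per kilobase, and Cycs was above all Apaf1 values. The per-kilobase level of Cycs leaves out the reads of its copies.

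The other genes of the pathway were taken from function lists that hold 30 genes beside the 8 described. Of these 30, 16 have values and were tested, and 14 are not listed in the table, among them Bcl2l1, Bak1, Bbc3, Pmaip1 and Bcl2l11. None of the 16 passed limma's test over all genes in either direction, and 2 had an unadjusted p under 0.05 (against 7.71% of all genes). On mean log2 values 12 were higher in Mcph1-/- and 4 lower, against 53.8% of all tested genes higher. The median of their log2 fold changes was 0.35, and that of all tested genes was 0.08. In 3 of the 16 the genotypes did not overlap, against 14.2% of all tested genes.

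Dffa, the inhibitor and chaperone of the caspase-activated nuclease, was lower in every Mcph1-/- library, at 121, 97.6 and 28.6 in Mcph1-/- and 239, 318 and 521 in WT. Its log2 fold change was -2.27 (SE 0.88; limma adjusted p = 0.626). The nuclease itself, Dffb, had a log2 fold change of 1.32 with an SE of 2.20. Diablo, released from mitochondria to block inhibitors of apoptosis, was higher in every Mcph1-/- library, at 2731, 2021 and 2055 in Mcph1-/- and 1016, 1512 and 1680.4 in WT. Its log2 fold change was 0.71 (SE 0.26; limma adjusted p = 0.626), and it shares 2641 exonic bases with 3 other genes. The membrane channel gene Vdac3 stood at 1268, 1246 and 1496 in Mcph1-/- and 1142, 850.0 and 979 in WT, again without overlap (log2 fold change 0.44, SE 0.25).

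The remaining genes of the 16 overlapped between the genotypes. The pore-former Bax, the only one of its list with values, had a log2 fold change of 0.27 (SE 0.27; 95% interval -0.36 to 0.89). Endog, a mitochondrial nuclease, had 1.53 (SE 0.84). The 7 genes of the apoptosome and of proteins released from mitochondria had log2 fold changes above 0 (against 53.8% of all tested genes), with a median of 0.71, and none passed. Among them Casp9, at 0.01, turned below 0 in 6 of 17 alternative settings, and Apaf1 passed the filter through its Mcph1-/- libraries. Of the 8 anti-apoptotic genes on their list 3 have values. All 3, Bcl2, Mcl1 and Bcl2l2, had log2 fold changes below 0, as had 5011 of all 10846 tested genes. The median of the 3 was -0.995, which is the value of Mcl1, and none passed. Without Mcph1-/- replicate 3 Mcl1 was at -0.14, and Bcl2l2 (-0.89, SE 2.41) had a 0 in each genotype. Of the inhibitors of apoptosis, Xiap (0.60, SE 0.84), Birc6 (0.18, SE 0.40) and Birc2 (-0.15, SE 0.80) lay on both sides of 0. Of the channels, Vdac1 had 1.27 (SE 0.78) and Vdac2 0.08 (SE 0.24), and Casp2 had -0.37 (SE 0.64).

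**Figure D5:**
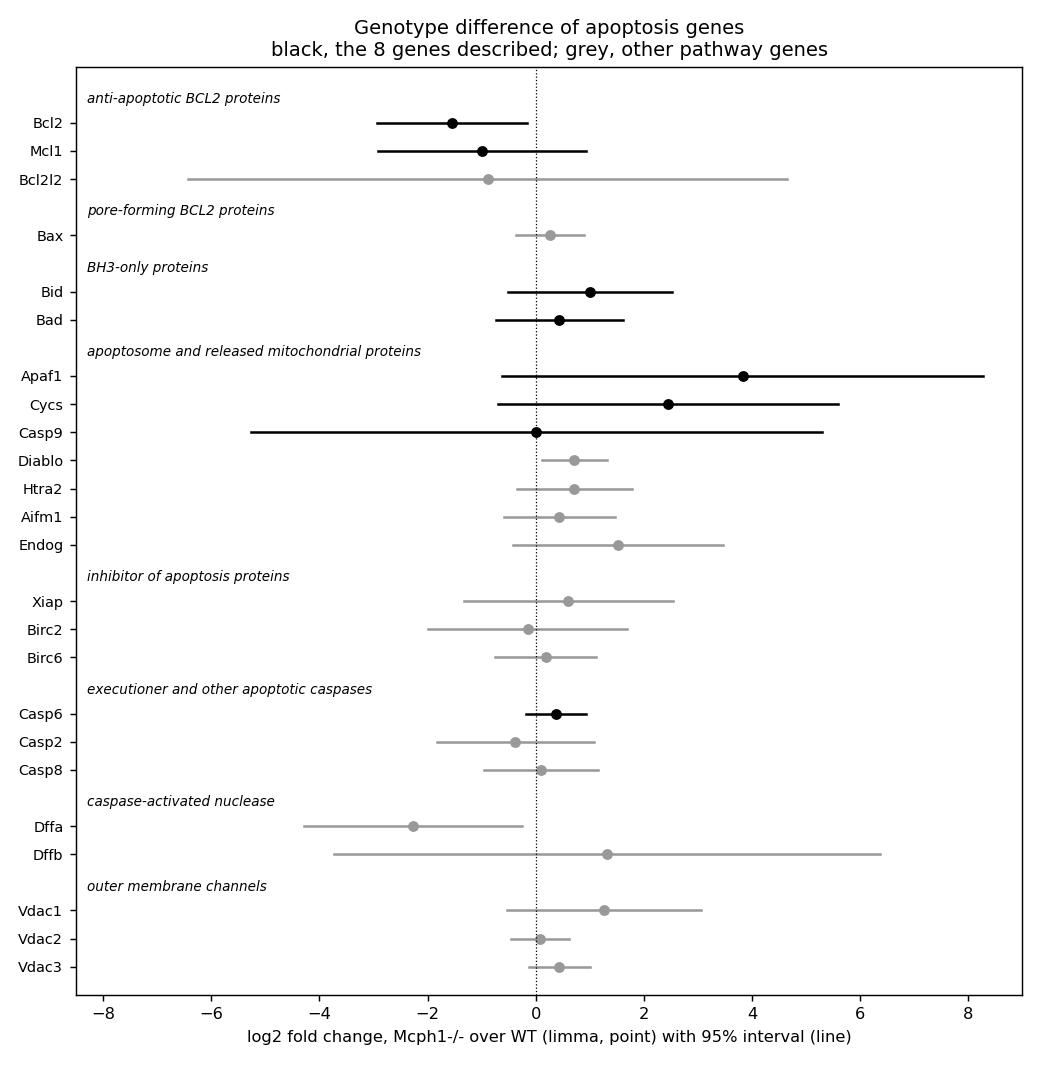
Log2 fold change (Mcph1-/- over WT) with its 95% interval from limma for the 8 genes (black) and the 16 other tested pathway genes (grey), by function list. The intervals of Bcl2, Dffa and Diablo do not reach 0 before adjustment over all genes, and the other 21 do.

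For each of the 8, the gene with the most similar pattern over the 6 libraries was sought among 8804 genes, as the smallest root mean square difference of log2 values centred on each gene's mean. For Casp6 it was Set, a histone chaperone and inhibitor of protein phosphatase 2A, with a difference of 0.0996, and its values were 5880, 7055 and 6521 in Mcph1-/- and 5148, 4276 and 4073 in WT. For Cycs it was Rrm2, a subunit of ribonucleotide reductase (0.186), at 720, 1883 and 1708 in Mcph1-/- and 97.6, 305 and 586 in WT. For Bcl2 it was Tm9sf4, which encodes a membrane protein (0.174), at 615, 278 and 416 in Mcph1-/- and 1075, 1017 and 1040 in WT. The closest genes were Eef2kmt for Bad (0.155), Mis12 for Bid (0.264) and Usb1 for Mcl1 (0.324). The differences were larger for Casp9 (Marcks, 0.833) and Apaf1 (Specc1, 1.07), whose own spread between libraries was the widest of the 8. The difference is not scaled to a gene's own spread, so its size does not rank how well the genes were matched. These are descriptions of 6 libraries, with no test.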

How the data were processed

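Libraries of 200 sorted cells were made with Smart-seq2 and sequenced as paired 150-bp reads, per the labels' protocols. Trim Galore 0.6.6, HISAT2, featureCounts, DESeq2 and build mm10 are named in the submitters' processing notes, with no role or order, and neither the annotation release nor the strand setting is stated there. The authors deposited a signal per gene and library, which the values show to be reads over a library-wide size factor (reads of 8102605 to 10455908 per library): 100% of values are whole reads within 0.001 reads. All genes in the table were read in 4 or more libraries. Replicates differed by more than the counting error of reads (chi-square per degree of freedom at least 82.9). The part of cell sampling and library preparation in this was not tested.

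From these values, limma 3.58.1 (trend) was fitted in R 4.3.3 to log2(value + 1) of the 10846 genes with a mean of at least 10, with genotype as the only term, all 6 libraries and Benjamini-Hochberg adjustment. The added 1 alters the changes of low genes. With 0.5 in its place the log2 fold change of Apaf1 was 4.21 against 3.83, and that of Casp9 was -0.29 against 0.01. Alternatives used edgeR 4.0.16, DESeq2 1.42.0 and limma-voom on the recovered reads, where edgeR called 2 genes, and other pseudocounts, filters, scalings and samples. The scripts were tested on simulated reads with changes larger than most of those reported here. How well smaller changes are found was not tested. Positions and exon lengths are from GENCODE M21 (mm10), which matched 96.2% of genes by identifier, near-identical copies were found with BLAST 2.17.0, and promoters are from RefSeq (GRCm38.p6).

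The 8 genes, the lists and the tests were chosen with earlier results of these data known. Named are the 8 genes, up to 4 genes per pathway list by p, the closest gene to each of the 8 and marker sums. Some genes of the pathway are not reported here. Floors and intervals on reads cover counting error only.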

Additional observations from a re-analysis of the deposited data

How the results depend on the processing

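None of the 8 genes passed under any of 17 alternative settings, or with Cycs summed with its copies, a setting chosen after seeing the data. The count of all genes past the threshold, 4, was 2 by edgeR, 238 by DESeq2 (120 higher and 118 lower in Mcph1-/-) and 1 by limma-voom, and 1 to 4 with a library left out (2 without Mcph1-/- replicate 1, 1 without WT replicate 1 and 1 without WT replicate 2). The number of the 8 whose genotypes did not overlap was 3 to 6 with a library left out. The share of all tested genes without overlap was then 22% to 30.8%, against 14.2% with all 6 libraries. The median log2 fold change of the 8 was 0.23 to 0.99 with a library left out, and the other settings kept it within 0.38 to 0.59. Bcl2, Mcl1, Bid, Bad, Apaf1, Cycs and Casp6 kept their direction in every alternative in which they were tested. Apaf1 was not tested at a mean of at least 50. With a library left out, the direction of Bcl2, Cycs and Casp6 was fixed in advance, since their genotypes do not overlap. Over the 17 settings the lowest adjusted p was 0.128 for Apaf1, 0.169 for Bcl2 and 0.285 for Cycs, all by DESeq2. Casp9 was -0.29 with a pseudocount of 0.5, -0.26 by limma-voom, and -1.32 to 2.44 with a library left out, negative at -1.10 and -1.32 without Mcph1-/- replicates 2 and 3 and at -0.55 and -0.46 without WT replicates 2 and 3; its 0 reads in Mcph1-/- replicate 1 make it depend on the pseudocount. With the replicate number as a block, 3 genes passed against 4, and none of the 8. The labels do not say that the numbers pair the libraries. Deviations of same-numbered libraries correlated at -0.0139, 0.0176 and -0.0295. With 3 libraries per genotype this cannot tell whether they were paired. Apaf1 had 0 to 8 reads in 4 of the 6 libraries and Casp9 0 to 14 in 3, with over 100 in the others, and the cause was not tested.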
